A study of Mus musculus with 4 samples.

Results

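A set of 8 receptors for lipid mediators and related small ligands was followed in natural killer (NK) cells of mouse liver: Ltb4r1, Ptger4, Ptger2, Gpr183, Gpr34, Gpr55, Gpr174 and Cmklr1. They were taken by gene symbol, and all 8 were found among the 21025 rows of each expression table. The RNA was polyA RNA of NK cells sorted from freshly taken livers of C57BL/6 mice, with no further genotype or treatment in the labels, and sequenced as 2 libraries of each of 2 subsets. TRAIL+ cells lacked the beta chain of the T-cell receptor and were positive for NK1.1 and NKp46, positive for the death ligand TRAIL and negative for CD49b. CD49b+ cells shared the first 3 marks but carried CD49b and no TRAIL. The age and sex of the mice, how many were used and whether libraries came from separate mice are not given in the labels, so each p-value speaks only of the variation seen among the 4 libraries, part of which may be technical.

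G protein-coupled receptors of this kind let lymphocytes read lipids and metabolites released in a tissue. Leukotriene B4, oxysterols and the protein chemerin act as attractants, prostaglandin E2 acts largely through cyclic AMP and can dampen NK cell function, and lysophospholipids such as lysophosphatidylserine are shed from membranes. In liver, TRAIL-bearing NK1.1+ cells without CD49b are known as resident type 1 innate lymphoid cells, and CD49b+ cells as conventional NK cells that circulate.

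Values are RPKM, reads scaled to the length of the gene and the depth of the library, as deposited by the authors. The library totals that scale them, worked out from the steps in which the values move, were 3786497 to 4232967 reads. For a gene 2000 bases long, 7.57 to 8.47 reads made up 1 RPKM. The sort marks followed the labels, with Tnfsf10 (TRAIL) at 208 and 189 RPKM in TRAIL+ and 7.26 and 6.94 RPKM in CD49b+ libraries. Itga2 (CD49b) stood at 5.26 and 1.55 against 52.1 and 37.0 RPKM. The shared marks Klrb1c (NK1.1) and Ncr1 (NKp46) had overlapping groups, with means of 1073 against 1148 and 1042 against 1062 RPKM.

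The subsets carried different sets of these receptors. TRAIL+ cells expressed Gpr34, Ltb4r1 and Gpr55, which were near the floor of detection in CD49b+ cells, and had about 2.17 times the Ptger4 of CD49b+ cells. CD49b+ cells held nearly all of the Cmklr1 transcript. Gpr174, Ptger2 and Gpr183 did not pass the test. Of the 8 receptors, 5 passed, of which 4 were higher and 1 was lower in TRAIL+ cells, at an adjusted p under 0.05 (limma on log2(RPKM + 1), Benjamini-Hochberg over 10047 genes). Among all genes tested 8.62% passed by the same rule, 4.76% higher and 3.86% lower. The libraries of the 2 subsets did not overlap for 7 of the 8, against 46.8% of all genes tested. The median log2 fold change of the 8 was 0.86, TRAIL+ minus CD49b+, and that of all genes tested was 0.0050. Ltb4r1 and Gpr55 reached the 1 RPKM needed for testing only in TRAIL+ libraries, so they had to differ to enter, and these counts are not support for a difference in the group as a whole.

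**Figure D1:**
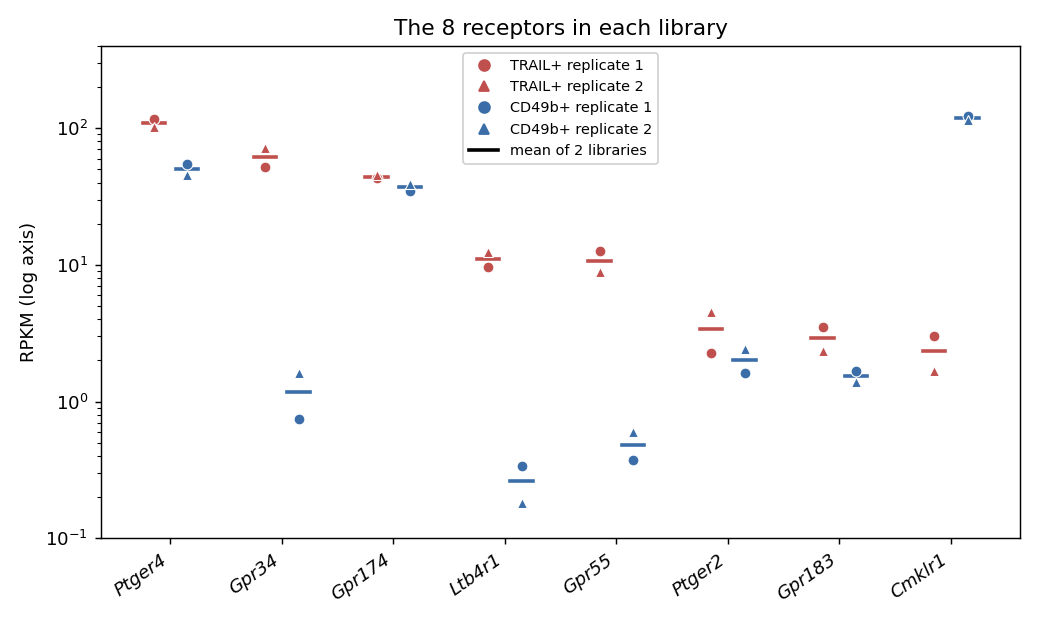
RPKM of the 8 receptors in each of the 4 libraries on a log axis, red for TRAIL+ and blue for CD49b+, with circles for replicate 1, triangles for replicate 2 and bars for the mean of 2 libraries. Gpr34, Ltb4r1 and Gpr55 lie far higher in TRAIL+ libraries, Cmklr1 far higher in CD49b+ libraries at 115 to 123 RPKM, and the others lie close together.

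Start site sequences are given for the called receptors that have an entry in the RefSeq promoter table, to show which factor motifs the window before each gene holds. Entries were found for 7 of the 8 receptors, and those of Ltb4r1, Gpr55, Ptger4 and Cmklr1 are printed as the 250 bases before the annotated start, 5′ to 3′ along the gene, in build GRCm38.p6, a later build than the mm9 that the submitters' processing notes name. Capitals mark matches, on either strand, to the letters searched.
Ltb4r1, chr14:55765712-55765961, plus strand: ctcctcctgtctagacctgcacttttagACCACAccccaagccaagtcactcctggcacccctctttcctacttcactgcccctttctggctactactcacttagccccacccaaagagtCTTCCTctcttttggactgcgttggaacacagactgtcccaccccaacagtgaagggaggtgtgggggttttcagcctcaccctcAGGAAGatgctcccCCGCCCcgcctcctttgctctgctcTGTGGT
Gpr55, chr1:85961056-85961305, minus strand: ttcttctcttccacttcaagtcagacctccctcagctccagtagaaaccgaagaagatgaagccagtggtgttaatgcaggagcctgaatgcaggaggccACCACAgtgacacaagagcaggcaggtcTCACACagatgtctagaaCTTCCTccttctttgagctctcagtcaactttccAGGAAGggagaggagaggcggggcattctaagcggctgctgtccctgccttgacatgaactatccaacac
Ptger4, chr15:5244188-5244437, minus strand: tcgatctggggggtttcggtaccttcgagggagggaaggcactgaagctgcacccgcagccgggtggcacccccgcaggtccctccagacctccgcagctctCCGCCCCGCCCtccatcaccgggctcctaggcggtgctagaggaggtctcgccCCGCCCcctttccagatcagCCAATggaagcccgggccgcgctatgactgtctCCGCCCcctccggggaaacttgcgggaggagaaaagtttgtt
Cmklr1, chr5:113643604-113643853, minus strand: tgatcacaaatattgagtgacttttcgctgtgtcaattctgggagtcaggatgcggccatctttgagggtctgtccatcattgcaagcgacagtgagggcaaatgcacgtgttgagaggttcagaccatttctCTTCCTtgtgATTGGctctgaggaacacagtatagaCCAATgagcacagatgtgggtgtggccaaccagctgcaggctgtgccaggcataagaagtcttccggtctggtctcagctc

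The letters searched were GTGTGA (T-box core), TGTGGT (Runx), AGGAAG (Ets), GGGCGG (GC box), CAGGTG (Zeb E-box), TGACGTCA (cAMP response element), TTACGTAA (Nfil3) and the letters of the CCAAT box. Ltb4r1 held 2 Runx matches, 1 of them ending at the base before the start, with 2 Ets matches and 1 GC box. Gpr55 held 1 T-box core, 1 Runx and 2 Ets matches. The Ptger4 window held 4 GC boxes, 2 of which overlap by their end bases, and 1 CCAAT box, at 66.8% G and C. Cmklr1, the receptor that was lower in TRAIL+ cells, held 1 Ets match and 2 CCAAT boxes, at 50.4% G and C. Of 32851 such windows in the table, 12.3% held the T-box core, 14.0% the Runx letters, 29.5% the Ets letters, 32.7% the GC box, 33.8% the CCAAT box and 17.2% the Zeb E-box. None of the 4 printed windows held the Zeb E-box, the cAMP response element (1.55% of windows) or the Nfil3 letters (0.113%). These matches describe the letters and are not binding sites measured here.

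Ltb4r1 and Cmklr1, both receptors for attractants, differed in opposite directions. Ltb4r1 encodes BLT1, the high-affinity receptor through which leukotriene B4 draws in leukocytes. It stood at 9.69 and 12.5 RPKM in the TRAIL+ libraries and at 0.339 and 0.182 RPKM in the CD49b+ libraries. Both TRAIL+ libraries lay far above both CD49b+ libraries, which held 2 reads and 1 read of it. The ratio of reads was 41.9, with an exact binomial 95% interval of 14.0 to 206 that covers counting error only. The log2 fold change was 3.26 ± 0.24 (SE, limma adjusted p = 0.00174), and it was 4.98 with a pseudocount of 0.1 and 1.61 with a pseudocount of 5. The low-affinity receptor gene Ltb4r2, named after its value was seen, was at 0.680 RPKM, on 3 reads, in TRAIL+ replicate 1 and had no reads in the other libraries.

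Cmklr1 encodes ChemR23, a receptor for chemerin that is used as a marker of mature NK cells. In TRAIL+ libraries it stood at 3.02 and 1.67 RPKM, on 35 and 18 reads, and in CD49b+ libraries at 123 and 115 RPKM. The means were 2.34 ± 0.954 and 119 ± 5.60 RPKM (SD, n = 2 each), a 50.9-fold difference. At -5.20 ± 0.24 log2 units (SE, limma adjusted p = 0.000565), this was the 10th largest decrease of the 10047 genes tested. It was the most abundant of the 8 receptors in CD49b+ cells and the least abundant by mean in TRAIL+ cells. Within a library, Cmklr1 stood at 364 and 632 times the RPKM of Ltb4r1 in CD49b+ cells and at 0.311 and 0.133 times in TRAIL+ cells. Of the 9 genes in the list of chemerin and peptide attractant receptors, which also holds the chemerin gene Rarres2, 8 stayed below 1 RPKM in every library. The other, Ccrl2, a chemerin-binding receptor that does not signal by itself, is named here after its value was seen and stood at 38.9 ± 2.08 and 26.2 ± 3.23 RPKM (log2 fold change 0.56 ± 0.17, limma adjusted p = 0.138). With the replicate number as a block, Ccrl2 passed at an adjusted p of 0.0322 in limma.

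**Figure D2:**
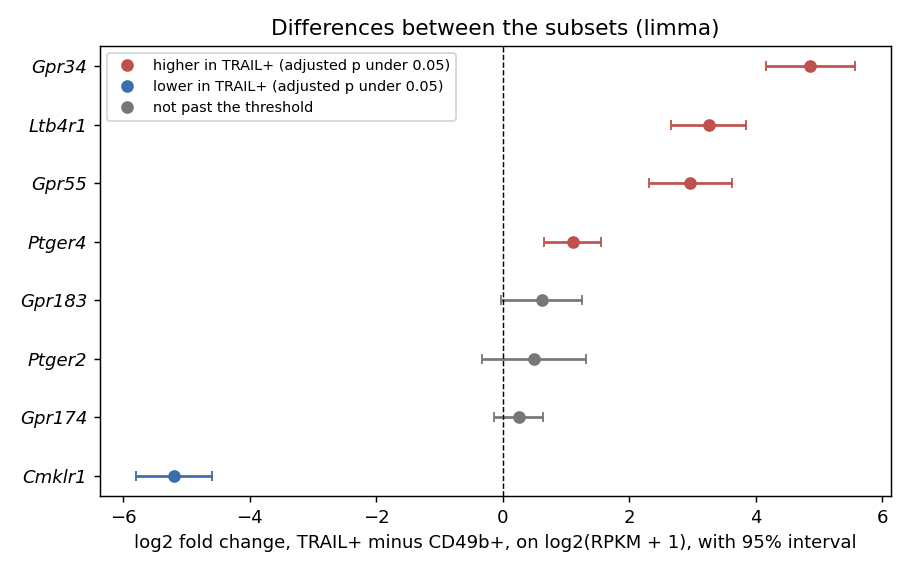
Log2 fold change of each receptor, TRAIL+ minus CD49b+, on the log2(RPKM + 1) scale, with its 95% interval from limma and colours for the calls. Gpr34 at 4.86, Ltb4r1 at 3.26, Gpr55 at 2.97 and Ptger4 at 1.11 lie above 0, Cmklr1 at -5.20 lies below it, and the intervals of Gpr183, Ptger2 and Gpr174 include 0.

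Of the prostaglandin E2 receptors among the 8, Ptger4 was far above Ptger2 in every library. Ptger4 encodes EP4, which raises cyclic AMP through Gs. Its level was 116 and 101 RPKM in TRAIL+ libraries and 54.9 and 45.2 RPKM in CD49b+ libraries, so the lowest TRAIL+ library was well above the highest CD49b+ library. On the log2 scale the difference was 1.11 ± 0.18 (SE, 95% interval 0.66 to 1.56, limma adjusted p = 0.0196). The Ptger4 call was lost without CD49b+ replicate 1 (limma adjusted p = 0.113) and without CD49b+ replicate 2 (0.258), at folds of 2.41 and 1.98. The annotation places exons of Ttc33 across those of Ptger4 on the opposite strand. Ttc33, at 23.7 and 43.9 against 20.2 and 23.9 RPKM, had overlapping groups, and whether its reads were counted for Ptger4 was not tested.

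Ptger2 encodes EP2, the other Gs-coupled receptor for prostaglandin E2. It stood at 2.28 and 4.48 RPKM in TRAIL+ and at 1.63 and 2.43 RPKM in CD49b+ libraries. TRAIL+ replicate 1 lay below CD49b+ replicate 2, so the groups overlapped. Its difference of 0.50 ± 0.33 in log2 units did not pass (95% interval -0.32 to 1.32, limma adjusted p = 0.522). The ratio of reads was 1.66 (exact binomial 95% interval 1.20 to 2.32, counting error only), and the 2 TRAIL+ libraries differed from each other by more than that ratio. Exons of the antisense gene Gm17173, not analysed here, overlap those of Ptger2. Ptger4 stood at 18.6 to 51.0 times the RPKM of Ptger2 within a library, with the 2 subsets overlapping in that ratio.

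A further prostaglandin E2 receptor comes from the list of other eicosanoid receptors. Ptger3, which encodes the mostly Gi-coupled EP3, was higher in TRAIL+ cells, at 6.44 and 6.27 RPKM against 0.351 and 0, on 202 against 6 reads (log2 fold change 2.66 ± 0.25, limma adjusted p = 0.00356). Of the 11 genes in that list, 4 were tested, 2 were higher and 1 was lower in TRAIL+ cells. Of all genes tested, 8.62% passed. Besides Ptger3, the cysteinyl leukotriene receptor gene Cysltr2 was higher, at 25.5 ± 3.77 against 11.0 ± 2.01 RPKM, a call lost without CD49b+ replicate 1 (limma adjusted p = 0.278) and CD49b+ replicate 2 (0.106). Tbxa2r, the thromboxane receptor gene, was lower at 0.383 and 0.275 against 4.67 and 6.48 RPKM (log2 fold change -2.29 ± 0.25, limma adjusted p = 0.00533).

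**Figure D3:**
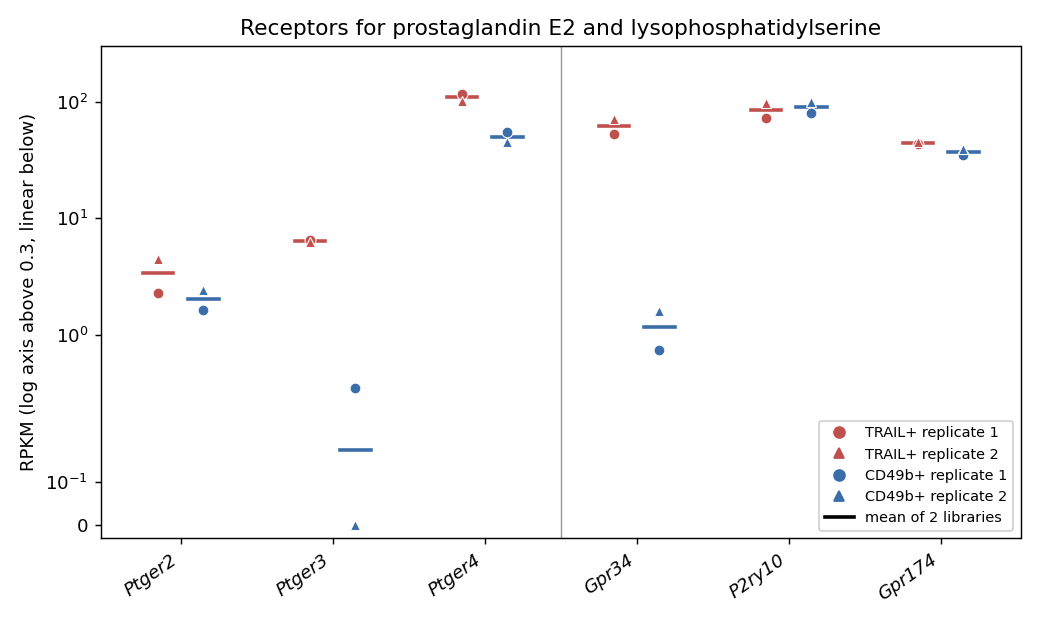
RPKM per library of 3 prostaglandin E2 receptor genes (left of the line) and 3 lysophosphatidylserine receptor genes (right), log axis above 0.3 and linear below, symbols and bars as in the plot of all 8 receptors. Ptger3 and Gpr34 separate the subsets most, Ptger4 does so by about 2.17 times, and Ptger2 and P2ry10 overlap.

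The lysophospholipid receptors included the largest increase among the 8. Gpr34 encodes a receptor for lysophosphatidylserine best known from microglia and innate lymphoid cells. It stood at 52.3 and 71.3 RPKM in TRAIL+ libraries and at 0.746 and 1.60 RPKM in CD49b+ libraries, on 405, 513, 6 and 12 reads. The groups did not overlap, and the fold of the means was 52.6, with a range of 38.5 to 82.9 when 1 library was left out. At 4.86 ± 0.28 log2 units (SE, limma adjusted p = 0.000856), this was the 14th largest increase of the 10047 genes tested. The gene lies within an intron of Cask, on the opposite strand, and Cask stayed at 0.148 to 0.287 RPKM in every library.

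Gpr174 encodes another lysophosphatidylserine receptor and is common to many lymphocytes. Its levels were close, at 43.2 and 45.1 RPKM in TRAIL+ and 34.9 and 39.1 RPKM in CD49b+ libraries. Both TRAIL+ libraries were above both CD49b+ libraries, but the log2 difference of 0.25 ± 0.16 did not pass (95% interval -0.14 to 0.65, limma adjusted p = 0.497). The interval holds no change as large as 2-fold on this scale. P2ry10, a further receptor for this lipid that was named after its value was seen, stood at 84.3 ± 17.0 and 89.8 ± 14.0 RPKM (limma adjusted p = 0.889). Gpr34 was at 1.21 and 1.58 times the RPKM of Gpr174 in TRAIL+ libraries and at 0.0214 and 0.0411 times in CD49b+ libraries. Whether the changes of Gpr34 and Gpr174 differ was not tested. The smallest p that an exact permutation test of 2 against 2 libraries can give is 0.333.

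Gpr55 encodes a receptor for lysophosphatidylinositol that also binds some cannabinoids. It stood at 12.7 and 8.80 RPKM in TRAIL+ libraries and at 0.370 and 0.598 RPKM in CD49b+ libraries, the latter on 4 and 6 reads. The TRAIL+ libraries lay clear of the CD49b+ libraries, with a 22.2-fold difference of the means. The log2 fold change was 2.97 ± 0.26 (SE, limma adjusted p = 0.00292), and 4.22 and 1.51 with pseudocounts of 0.1 and 5. The exons of 4933407L21Rik, a gene on the opposite strand that was not analysed here, overlap those of Gpr55 in the annotation.

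Gpr183 encodes EBI2, the receptor for 7-alpha,25-dihydroxycholesterol that positions lymphocytes and innate lymphoid cells in tissue. It was low in both subsets, at 3.50 and 2.33 RPKM in TRAIL+ and 1.69 and 1.38 RPKM in CD49b+ libraries. The groups did not overlap, yet the difference of 1.90-fold did not pass (log2 fold change 0.62 ± 0.26, 95% interval -0.03 to 1.26, limma adjusted p = 0.272). The 105 reads behind it, 68 in TRAIL+ and 37 in CD49b+ libraries, gave a ratio of 1.91 with an exact binomial 95% interval of 1.26 to 2.93. Gpr183 lies in an intron of Ubac2 on the opposite strand, and Ubac2, named after its value was seen, stood far above it at 162 ± 20.1 and 121 ± 15.4 RPKM. Of the 4 enzymes of the oxysterol list, 3 stayed below 1 RPKM in all libraries and none was abundant enough to be tested.

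Summed over the 8 receptors, the libraries differed little, at 243 and 247 RPKM in TRAIL+ and 218 and 206 RPKM in CD49b+ cells, while the shares of several receptors differed. Ptger4 took 47.9% and 40.9% of the sum in TRAIL+ libraries and 25.2% and 21.9% in CD49b+ libraries. Gpr34 took 21.5% and 28.8% against 0.342% and 0.780%. Cmklr1 went from 1.24% and 0.675% in TRAIL+ libraries to 56.6% and 56.1% in CD49b+ libraries. The share of Gpr174 was alike, at 16.0% to 19.0% over the 4 libraries. By mean RPKM the order in TRAIL+ cells was Ptger4, Gpr34, Gpr174, Ltb4r1, Gpr55, Ptger2, Gpr183 and Cmklr1. There Ltb4r1 and Gpr55 overlapped each other, as did the neighbours among the last 3. In CD49b+ cells the order was Cmklr1, Ptger4, Gpr174, Ptger2, Gpr183, Gpr34, Gpr55 and Ltb4r1, with overlaps between Ptger2 and Gpr183 and between Gpr183 and Gpr34. In bulk libraries, fewer cells with a transcript and less of it per cell cannot be told apart.

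**Figure D4:**
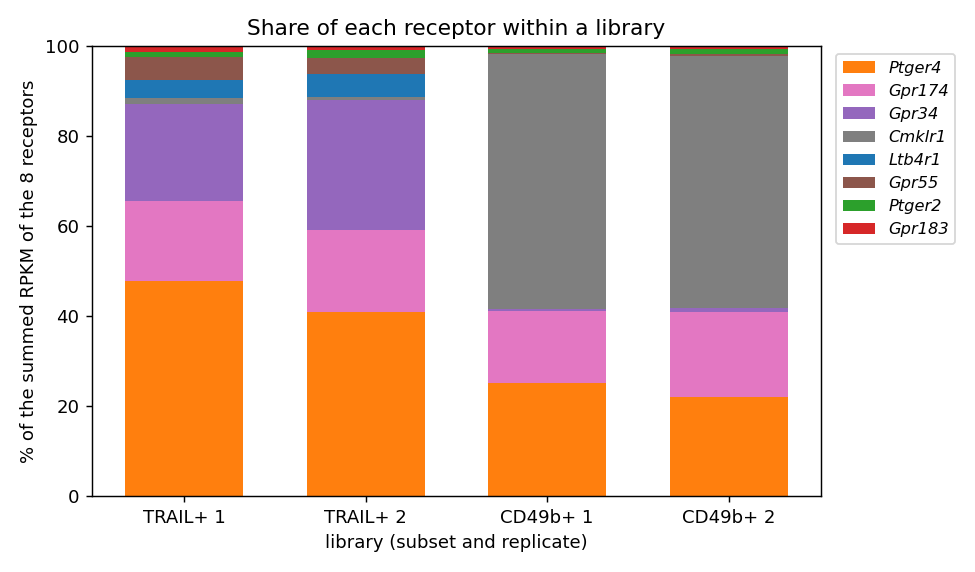
Share of each receptor in the summed RPKM of the 8, in percent, as stacked bars for the 4 libraries. Gpr34, Ltb4r1 and Gpr55 take visible shares in TRAIL+ libraries alone, Cmklr1 takes 56.1% and 56.6% in CD49b+ libraries, and Gpr174 keeps 16.0% to 19.0% throughout.

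Receptors for other lysophospholipids and for sphingosine 1-phosphate, the lipid that guides lymphocytes out of tissues, also split. Of 13 genes, 8 were tested, 2 were higher and 3 were lower in TRAIL+ cells, with a median log2 fold change of -0.12. By the same rule 8.62% of all genes tested passed. S1pr5 was lower, at 2.85 and 4.44 against 263 and 260 RPKM (log2 fold change -5.84 ± 0.21, limma adjusted p = 0.000301). S1pr1 was lower too, at 1.22 and 0.872 against 36.7 and 53.0 RPKM. S1pr4 (picked out after its value was seen) fell 2.12-fold with an adjusted p of 0.0472, a call lost in 7 of 13 alternatives. The lysophosphatidic acid receptor gene Lpar6 was higher, at 54.5 and 68.1 against 7.56 and 7.83 RPKM, and lies inside Rb1 with overlapping exons on the opposite strand. Lpar5 was 2.69-fold higher, a call lost without CD49b+ replicate 1 (limma adjusted p = 0.0722) and CD49b+ replicate 2 (0.0707).

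Proton, fatty acid, metabolite and cannabinoid receptors were mostly low, with 13 of 18 genes below 1 RPKM in every library. Of these, 8 were at 0 in all libraries. The acid-sensing receptor gene Gpr65 and the related Gpr132, both named after their values were seen, stood at 93.6 ± 8.51 against 75.6 ± 5.37 and 60.7 ± 0.568 against 57.7 ± 6.33 RPKM, and neither passed.

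Genes that make and clear the ligands were in part low in level. Of 25 genes of eicosanoid synthesis and clearance, 11 stayed below 1 RPKM in every library, 13 were tested, 1 was higher and 1 was lower, beside 8.62% of all genes tested that passed. Ptgs1, which encodes cyclooxygenase 1, was higher in TRAIL+ cells, at 19.3 and 21.6 against 5.92 and 6.99 RPKM (log2 fold change 1.53 ± 0.19, limma adjusted p = 0.00831), with an adjusted p of 0.0780 without CD49b+ replicate 1. Abcc4, a transporter that exports prostaglandins and cyclic AMP, was lower at 2.36 ± 0.122 against 5.72 ± 0.0241 RPKM, and its call was lost without either CD49b+ library (limma adjusted p = 0.326 and 0.285) and without TRAIL+ replicate 2 (0.0576). Lta4h, the enzyme that completes leukotriene B4, was the most abundant at 158 ± 3.68 and 119 ± 3.20 RPKM and did not pass (limma adjusted p = 0.234). Among 24 enzymes of lysolipids and sphingolipids, 18 were tested and only Lpcat1 passed, 2.07-fold higher, with an adjusted p of 0.452 and 0.318 without CD49b+ replicates 1 and 2 and 0.0577 without TRAIL+ replicate 1. The lysophospholipase gene Lypla2, the most abundant there, was at 143 ± 16.4 and 131 ± 4.94 RPKM.

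Downstream, the G protein alpha subunits gave 0 calls among 9 tested, by limma and by voom, with 1 (Gna15) at an unadjusted p under 0.05. Gnai2, the Gi subunit behind most leukocyte attractant receptors, was the most abundant at 540 ± 11.3 and 573 ± 10.9 RPKM. Receptor kinases and arrestins also gave 0 calls among 5 tested by either tool, with 3 (Grk6, Arrb1 and Arrb2) at an unadjusted p under 0.05. The most abundant was Grk2 at 136 ± 6.20 and 136 ± 10.2 RPKM. Among all genes tested 8.62% passed by limma, so 0 calls among 9 or 5 tested genes tell little about these lists. Of 35 genes of the cyclic AMP pathway, 22 were tested, 2 were higher and 2 were lower in TRAIL+ cells. Pde2a, a phosphodiesterase that breaks down cyclic nucleotides, was 13.4-fold lower, at 9.10 and 10.5 against 133 and 130 RPKM (log2 fold change -3.62 ± 0.16, limma adjusted p = 0.000561). The cyclic AMP phosphodiesterase genes Pde7a and Pde4b were 2.48-fold and 1.92-fold higher, and the orphan nuclear receptor gene Nr4a2 was 3.66-fold lower. Those last 3 calls were lost without CD49b+ replicate 1 (limma adjusted p = 0.0706, 0.371 and 0.123) and CD49b+ replicate 2 (0.117, 0.228 and 0.0950). Prkar1a, a regulatory subunit of protein kinase A, was the most abundant at 429 ± 64.0 and 341 ± 17.7 RPKM and did not pass.

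The genes with the pattern most like each called receptor were found by the root mean square difference of mean-centred log2(RPKM + 1) over the 4 libraries. For Ltb4r1 they were Pdcd1 (0.0736) and Il2 (0.107), the latter with no reads in CD49b+ libraries, and for Ptger4 Tdrd3 (0.0202) and Fbxw4 (0.0421). Ckb (0.0781) and Lag3 (0.199) were nearest to Gpr34. Hic1 (0.111) and Acpp (0.112) were nearest to Gpr55, and Cx3cr1 (0.158) and Rap1gap2 (0.163) to Cmklr1. With 4 libraries this likeness is set by the size of the difference between the subsets and the order of the 2 libraries in each.

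Markers of other cells were read beside these results, since several of the receptors are also used by other leukocytes. T-cell markers moved with TRAIL+ cells: of 8 genes 5 were tested, 4 were higher, among them Cd3e at 21.3 and 43.2 against 2.62 and 3.87 RPKM, and 1, Cd28, was lower. Their summed level was 50.8 and 84.3 RPKM in TRAIL+ and 30.2 and 33.8 RPKM in CD49b+ libraries. Summed dendritic cell markers, mostly Bst2, were 81.0 and 93.2 against 42.5 and 49.0 RPKM, and of the 2 of its 10 genes that were tested, Xcr1 was higher. The macrophage and monocyte list was lower in TRAIL+ libraries, at 196 and 147 against 850 and 825 RPKM, and its 2 lower members of 10 tested were Ly6c2 and Ccr2, which NK cells also express. Without that pair the 12 other genes summed to 111 and 28.9 against 143 and 16.1 RPKM, highest in replicate 1 of each subset, and Marco was at 0 in all libraries. Lyz2 made up most of the replicate 1 sums, and without it the 11 others summed to 28.6 and 19.7 against 20.7 and 7.23 RPKM. C1qa stood at 5.21 and 4.38 against 1.31 and 0 RPKM, and Clec4f, a Kupffer cell gene, at 0.918 and 1.32 against 0.196 and 0 RPKM, both higher in both TRAIL+ libraries. C1qa did not pass and Clec4f was not tested. Cd5l, Mrc1 and C1qc were also higher in both TRAIL+ libraries. Cd68 went the other way, at 5.09 and 3.13 against 7.69 and 5.77 RPKM. Lyz2, Csf1r, Adgre1, Vsig4 and C1qb had overlapping groups. B-cell markers summed to 17.3 to 25.7 RPKM in TRAIL+ and 13.9 to 28.0 RPKM in CD49b+ libraries, led by Cd79b. They gave 0 calls among 5 tested by limma and by voom, with 1, Cd79b itself, at an unadjusted p under 0.05. For these marker counts, the share of all genes tested that passed by limma was 8.62%. Neutrophil markers, led by S100a9, summed to 27.2 and 4.84 against 29.5 and 0.644 RPKM, hepatocyte markers, led by Alb, to 22.4 and 5.31 against 26.9 and 1.80 RPKM, and platelet and erythroid markers, led by Alas2, to 10.3 and 3.99 against 8.66 and 0.584 RPKM. Markers of endothelial and stellate cells summed to at most 0.392 RPKM, with Col1a1 the most abundant, and those of mast cells, basophils and eosinophils, led by Kit, to 7.80 to 13.7 RPKM. The part of T cells, dendritic cells or macrophages in the higher Ltb4r1, Gpr34, Gpr55 and Ptger4 of TRAIL+ libraries was not tested.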

How the data were processed

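RPKM values of 4 libraries were read as deposited by the authors, 1 file per library, per the file headers. The submitters' processing notes name TopHat 1.4.1 and the build mm9. Which counter and annotation were used, and whether strand was, is not given in the sources used here. Genes that overlap on opposite strands may share reads. Sample titles gave the subset and the replicate number. Rows were named by RefSeq accession (20661 of 21025), symbol (191) or synonym (65) in GRCm38.p6, and 108 kept the file's name.

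The 10047 genes that reached 1 RPKM in 2 or more of the 4 libraries were tested on log2(RPKM + 1) by limma (version 3.58.1, under R 4.3.3) with a prior spread that follows the mean level (3.51 prior and 2 residual degrees of freedom). Log2 fold changes are TRAIL+ minus CD49b+, ± SE, on this scale, which understates changes of low genes. Folds are ratios of mean RPKM, and levels are mean ± SD over 2 libraries. An adjusted p under 0.05 (Benjamini-Hochberg over all tested genes) is a call. Whole reads, worked out from the RPKM steps, fitted 100% of the 13681 rows above 0 within a relative tolerance of 1e-09. The steps give reads only up to a whole multiple, which was set by the annotated transcript length where there was one. Of 10859 rows of 1 accession with an annotated length, 81.1% had a worked-out length within 10% of it. Reads summed over rows exceeded the total that scales RPKM in every library, as with 4394798 against 4071617 in TRAIL+ replicate 1. Read counts and their intervals rest on these lengths. Intervals of read ratios are exact binomial and cover counting error only.

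The receptors and lists were chosen with earlier results of these data known, so their counts are descriptions. Named genes are the 8 receptors, the sort genes, up to 4 called genes a list by size, the most abundant gene of each enzyme, signalling and marker list, and the 2 nearest patterns of each called receptor. Every further gene, overlapping genes and single markers included, was chosen with its value in view. Ly6g, Hba-a1 and Hbb-b1 of the marker lists had no row. Some results are not reported here. Alternatives were other pseudocounts, filters, scalings, priors, voom on the reads, a replicate block and leaving out each library.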

Additional observations from a re-analysis of the deposited data

How the results depend on the processing

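Of the 8 receptors' log2 fold changes, 100 of 102 values under the alternatives kept their direction and their side of the threshold, and Ptger4 lost its call without CD49b+ replicate 1 or 2, ranging from 0.97 to 1.25 when 1 library was left out. Without a TRAIL+ library it kept its call. The cause was not tested. Over all genes, leaving out 1 library gave 245 to 777 higher and 198 to 763 lower genes, against 478 and 388. With the replicate number as a block there were 1049 higher and 833 lower. Deviations of same-numbered libraries correlated across genes at 0.563, and the labels do not say whether a number marks a shared mouse or day. The block changed no call among the 8 receptors. It did give calls for Ccrl2 (limma adjusted p = 0.0322), 1 G protein subunit (lower) and 3 receptor kinases and arrestins (2 higher, 1 lower), which had none without it. The cyclic AMP list rose to 4 higher and 6 lower and the lysolipid enzymes to 3 and 3. Eicosanoid synthesis and clearance rose to 2 higher. Members called stayed at 4 higher and 1 lower under every alternative except without a CD49b+ library, with 3 higher.

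Among the 11 sign changes outside the 8 receptors, Grk2 was at -0.010 under quantile normalization and at -0.014 under median centring. When 1 library was left out, Grk2 ranged from -0.071 to 0.080, Klrb1c from -0.34 to 0.12, Ncr1 from -0.12 to 0.059, P2ry10 from -0.30 to 0.11 and Gpr132 from -0.033 to 0.19. The cause was not tested. Ptger2 and Gpr183 gave no value with the 5 RPKM filter. Among the 8 receptors, depth limits Ltb4r1 and Gpr55 most, with 3 and 10 reads in CD49b+ libraries.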
